A study of Homo sapiens with 14 samples.

Results

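Antisense and divergent noncoding RNAs are transcribed from the strand opposite a named gene, either across its body or away from its promoter. They were chosen by name and by measured level, as every gene whose symbol ended in -AS and 1 digit or in -DT (divergent transcript) and whose FPKM (fragments scaled by transcript length and by mapped depth), summed per symbol, was at least 1 in 3 or more of 14 libraries. This gave 227 RNAs, 197 named -AS and 30 named -DT, of 1366 genes with such names and 28307 gene symbols in all. Since their levels chose them, those levels are given as a description. The gene named before the hyphen, called the partner, was present for 223 of the 227. The RNAs just inside the level limit were NCKAP5-AS2, FAM111A-DT and CCNT2-AS1, whose third-highest FPKM was 1.007, 1.008 and 1.019, and those just outside were PDCD4-AS1, HECTD2-AS1 and TDRKH-AS1, at 0.998, 0.988 and 0.988.

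The libraries were poly(A)-selected, stranded RNA-seq of A375, an established human melanoma line, and tested what follows from alteration of ZC3H18 (Z18), a zinc-finger protein that links the cap of nuclear RNA to decay. Bulk pools were transiently transfected and drug-selected, and had received either the Cas9 vector without a guide RNA (bulk control, n = 3) or the vector with a guide against Z18 (bulk CRISPR, n = 3). Such a pool mixes edited and unedited cells. The remaining libraries came from clones that grew out of single cells plated by limiting dilution. Of these, 2 were unedited (WT) and 3 had lost 1 Z18 copy after cutting (-/+), for which 2 guides were used. The paper does not say whether the 2 guides were given together. The other 3 carried a Z18 truncation on 1 allele (trunc/+), which 1 clone gained by templated repair and the others as other truncating mutations. Each clone gave 1 library. Test values reflect only how far these samples scatter, part of which may be technical.

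RNA polymerase II often starts in both directions at a promoter. The upstream product is usually capped but cut short by early polyadenylation sites, and it is then handed to the nuclear exosome by adaptor complexes. NEXT (ZCCHC8, RBM7 and the helicase MTREX) and PAXT (ZFC3H1 with PABPN1 and MTREX) are the main adaptors, and ZC3H18 bridges them to the cap-binding complex and its partner SRRT (ARS2). Many -DT genes are annotated products of such promoters, whereas -AS genes can start anywhere opposite a gene, and some, such as OIP5-AS1 (cyrano) and GABPB1-AS1, are well-studied long noncoding RNAs.

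The Z18 FPKM was 38.1, 13.9 and 48.7 in the bulk control libraries and 10.4, 11.9 and 12.8 in bulk CRISPR. It was 23.5 and 22.0 in the WT clones, 16.2, 17.1 and 16.1 in the -/+ clones, and 14.3, 13.98 and 8.70 in the trunc/+ clones. Each edited group lay below its control group, but no difference passed the adjusted test (limma, adjusted p = 0.176 in bulk, 1.0 for -/+ and 0.536 for trunc/+ against WT). Aligned fragments per library ranged from 15615675 to 33018360. Bulk controls 2 and 3 were the shallowest libraries and had the lowest share of repeat-derived fragments on the strand of the surrounding gene, 90.9% and 88.7%, against 92.5% to 93.3% in the other 12 libraries. The bulk controls also spread more than the other groups: on the log2(FPKM + 1) scale the SD of a typical gene (median) was 0.43, against 0.14 in bulk CRISPR. Of 13 melanoma and melanocyte lineage markers, 8 were high enough to test in bulk and none was called. The summed FPKM of the list was 1097 to 1395 in bulk control, 1866 to 2065 in bulk CRISPR and 1504 to 2487 in the clones. Most of this sum was VIM, at 1272, 1028 and 976 in bulk control and 1905, 1734 and 1702 in bulk CRISPR. Of the 13, 4 were under 0.5 in every library, and the pigment genes MLANA and TYR were listed at 0 throughout. Of 6 epithelial markers, 3 were tested in bulk and 2 fell, and the summed FPKM of the 6 was 715 to 1109 in bulk control and 414 to 539 in bulk CRISPR. The other marker lists (fibroblast, haematopoietic and endothelial) had no called gene in any comparison, but some of their sums were apart. Fibroblast markers summed to 2.60 to 3.31 in bulk control and 7.58 to 9.02 in bulk CRISPR, haematopoietic markers to 37.8 to 82.0 and 157 to 172, and endothelial markers to 1.80 to 2.41 in WT and 0.408 to 0.835 in trunc/+. Of the 6 haematopoietic markers 5, and of the 4 endothelial markers 3, were under 0.5 in every library. The haematopoietic sum was nearly all CD74, at 81.6, 50.2 and 37.4 in bulk control and 159.1, 156.5 and 171.9 in bulk CRISPR. In the clones CD74 ranged from 203 to 1436. Of the fibroblast sum, LUM was 1.7, 2.1 and 0.83 in bulk control and 6.1, 5.3 and 4.8 in bulk CRISPR. The remaining endothelial marker, KDR, was 2.28 and 1.70 in WT and 0.71, 0.36 and 0.056 in trunc/+. The part of these differences in the results below was not tested.

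The letters upstream of these RNAs differed widely in CG dinucleotides, the sites of vertebrate DNA methylation. RefSeq promoter windows (GRCh38.p14, 250 bases before to 50 bases after a start) matched 166 of the 227 RNAs by symbol, and 160 of these began at the start the files give. The windows held a median of 24.5 CG and were 65.0% G or C, against 14 and 58.7% in all 34943 promoter windows of the table. In the 49 windows of RNAs that run divergently from the partner without overlap, the medians were 32 CG and 69.7%. Windows of some RNAs described below are shown, 5′ to 3′ on the strand of the RNA and with each CG in capitals, because they span this range, from 1 CG at HECW2-AS1 through 13 at SERTAD4-AS1 and at SLCO4A1-AS1 to 36 at FGF14-AS2.
HECW2-AS1 (chr2:196259774-196260073, plus strand): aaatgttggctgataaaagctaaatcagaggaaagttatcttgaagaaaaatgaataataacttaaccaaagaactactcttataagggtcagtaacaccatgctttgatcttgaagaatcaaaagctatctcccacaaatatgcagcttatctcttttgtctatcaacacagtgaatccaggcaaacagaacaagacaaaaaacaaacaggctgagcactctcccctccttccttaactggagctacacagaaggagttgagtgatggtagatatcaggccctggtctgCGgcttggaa
SERTAD4-AS1 (chr1:210233836-210234135, minus strand): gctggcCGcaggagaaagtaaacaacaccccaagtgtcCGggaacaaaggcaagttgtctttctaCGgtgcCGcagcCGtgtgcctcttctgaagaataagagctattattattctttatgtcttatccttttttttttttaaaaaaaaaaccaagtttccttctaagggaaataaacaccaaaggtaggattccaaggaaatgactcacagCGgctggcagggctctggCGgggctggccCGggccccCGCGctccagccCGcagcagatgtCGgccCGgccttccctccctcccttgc
SLCO4A1-AS1 (chr20:62666572-62666871, minus strand): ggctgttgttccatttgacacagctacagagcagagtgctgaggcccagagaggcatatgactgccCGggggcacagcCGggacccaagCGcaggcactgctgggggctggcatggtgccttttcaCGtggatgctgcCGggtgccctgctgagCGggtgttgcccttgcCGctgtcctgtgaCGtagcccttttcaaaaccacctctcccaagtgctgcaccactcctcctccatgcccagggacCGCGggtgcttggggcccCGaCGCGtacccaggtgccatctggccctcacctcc
FGF14-AS2 (chr13:102394328-102394627, plus strand): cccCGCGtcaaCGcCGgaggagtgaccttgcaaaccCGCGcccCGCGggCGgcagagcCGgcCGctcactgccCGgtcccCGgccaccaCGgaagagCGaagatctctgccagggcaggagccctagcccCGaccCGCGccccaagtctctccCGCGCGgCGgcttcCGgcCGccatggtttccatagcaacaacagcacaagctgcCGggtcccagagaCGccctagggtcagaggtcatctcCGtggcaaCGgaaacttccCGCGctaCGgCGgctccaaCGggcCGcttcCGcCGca

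Motifs were searched in the windows on both strands. TATAAA, the core of the TATA box, occurred in 7 of the 166 windows (4.22%) and in 11.6% of all windows, and in 0 of the 49 divergent ones. CCAAT, the letters of the CCAAT box, occurred in 36.1% against 34.6%. AATAAA, the polyadenylation hexamer, occurred in 10.2% against 17.4%, and the window of SERTAD4-AS1 held it on its own strand. GTAAGT, a consensus-like 5′ splice site, occurred in 6.63% against 6.35%. AATAAA and TATAAA can overlap by sharing letters, and a match is a description of letters only.

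By position, 77 RNAs ran divergently from the partner with no overlap, at a median of 145 bases between the starts, and 61 of these 77 began within 300 bases of the partner's start. A further 61 overlapped the partner at the starts, 40 at the ends and 33 lay inside it. The partner lay inside the RNA in 6 cases, 6 were tail to tail without overlap, and 4 had no partner in the files. The 30 -DT genes had a median start distance of 164.5 bases. By GENCODE exons, 121 of 208 pairs shared exon bases on opposite strands and 87 shared none. GENCODE gene models can be longer than the deposited ones that gave the layouts. A pair laid out without overlap can therefore share exon bases here, as ZBED5-AS1 did with its partner (618). Where strands overlap, a small share of fragments on the wrong strand can move from the stronger gene to the weaker.

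Levels were low. The median over the 227 RNAs of their median FPKM was 1.66, against 6.84 for the partners and 8.54 for all 13050 genes that met the same level limit. In 64 RNAs the median was under 1, in 126 it was 1 to 5, in 19 it was 5 to 10, and in 18 it was 10 or more. The limit was met in all 14 libraries by 93 RNAs and in exactly 3 by 18, and 20 were listed at 0 in at least 1 library. Against the partner, 58 RNAs were as abundant or more so, and 67 had under 0.1 of its FPKM. An FPKM at these levels rests on few fragments. From the GENCODE exon lengths of 211 RNAs and the aligned fragments, a median of about 121 fragments per library lay behind an RNA (quartiles 55.5 and 308.5). These lengths join all annotated exons and can exceed the deposited gene span (17259 against 4133 bases for GABPB1-AS1). The fragments can thus be overstated.

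ZNF232-AS1, which lies inside the zinc-finger gene ZNF232 (chr17:5111935-5114382, plus strand, hg38), was the most abundant. Its FPKM was 38.4, 119 and 108 in bulk control, 37.3, 26.1 and 27.2 in bulk CRISPR, 44.9 and 38.0 in the WT clones, 32.6, 35.8 and 36.7 in the -/+ clones, and 22.8, 37.9 and 28.7 in the trunc/+ clones. Bulk controls 2 and 3 stood at more than any other library, and the remaining 12 lay close together. FGD5-AS1, from beside the gene FGD5, was between 29.3 and 39.5 in the 8 clones and between 12.8 and 24.2 in the 6 bulk libraries, while FGD5 itself was listed at 0 in every bulk library. EPB41L4A-AS1, host of a small nucleolar RNA, was 26.6, 45.2 and 45.7 in bulk control and 22.2, 21.5 and 21.3 in bulk CRISPR. TRHDE-AS1 varied widely between clones of 1 genotype, at 1.80 and 12.7 in the WT clones, 1.51, 7.18 and 15.6 in the -/+ clones, and 9.92, 13.0 and 2.57 in the trunc/+ clones, and its partner TRHDE, a peptidase of thyrotropin-releasing hormone, had means of 9.08 ± 8.87 (SD, n = 2), 6.67 ± 4.32 (SD, n = 3) and 9.47 ± 5.48 (SD, n = 3) in the same groups. The clone groups overlapped for both.

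CCDC144NL-AS1 was 10.1 to 18.0 in the 6 bulk libraries and 13.7 to 32.6 in the 8 clones. RAB30-DT, which starts 169 bases from the gene of the Golgi GTPase RAB30, was 20.01, 45.6 and 21.6 in bulk control, 16.3, 14.3 and 15.6 in bulk CRISPR, and 14.6 to 24.1 in the clones. Its bulk groups were apart, and RAB30 itself was only 0.640 ± 0.29 and 1.13 ± 0.47 (SD, n = 3 each). PITPNA-AS1, at the end of a phosphatidylinositol transfer protein gene, was 26.5, 33.6 and 16.6 against 17.7, 13.7 and 20.7 in bulk, which overlapped, and its partner PITPNA was higher in every edited pool, 14.2 ± 6.20 against 24.6 ± 2.66 (SD, n = 3 each). PPP1R14B-AS1 was 5.17 to 38.5 over the 14 libraries beside a partner, an inhibitor of protein phosphatase 1, whose group means were 206 to 465. OTUD6B-AS1 (6.74 to 19.97) and AGAP2-AS1 (7.26 to 16.7) had overlapping bulk groups.

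**Figure D1:**
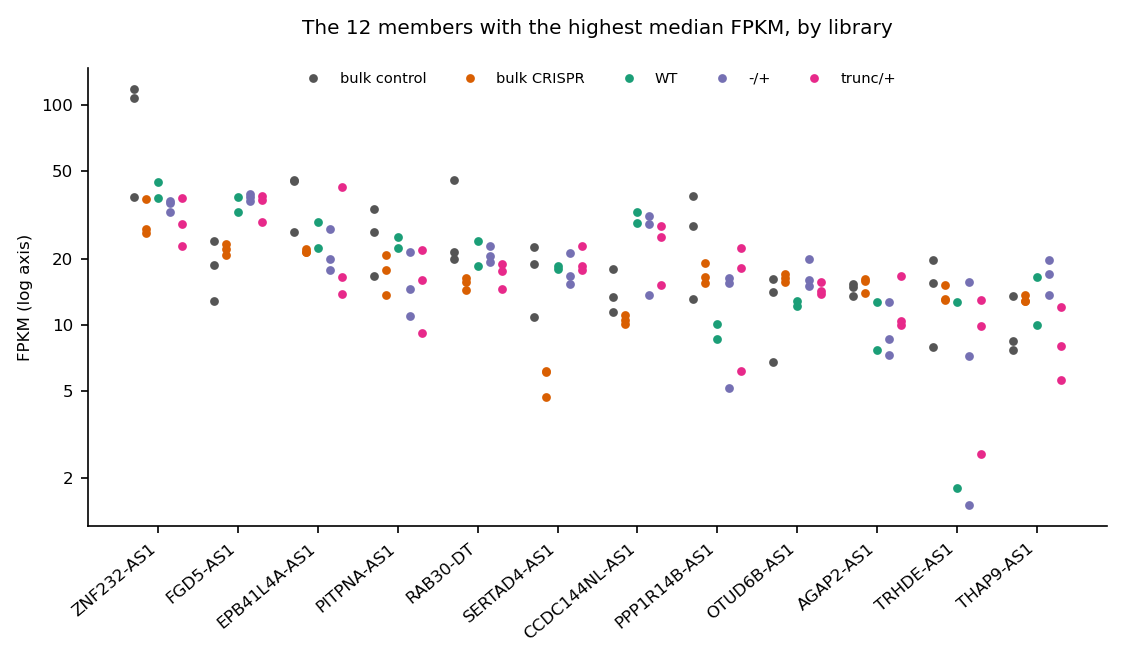
FPKM on a log axis of the 12 antisense and divergent RNAs with the highest median level. Each point is 1 library and colours mark the 5 groups. ZNF232-AS1 reached 119 and 108 FPKM in bulk controls 2 and 3, and SERTAD4-AS1 was lower in bulk CRISPR (4.68 to 6.18) than in every other library.

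In the bulk pools, these RNAs as a set lay lower after Z18 editing, while their partners and genes in general lay slightly higher. Together they made up 0.194% ± 0.0092 (SD, n = 3) of summed FPKM in bulk control and 0.155% ± 0.0063 (SD, n = 3) in bulk CRISPR, and the 2 groups did not overlap (0.186% to 0.204% against 0.151% to 0.162%). In pooled cells, a smaller share of cells with an RNA and less of it per cell cannot be told apart. Of the 227, 181 passed the filter for the fit (FPKM of at least 1 in 3 of the 6 bulk libraries). Of these, 11 met it only through bulk control and 3 only through bulk CRISPR, and those 14 had to differ. The median fitted log2 fold change of the 181 was -0.28 (quartiles -0.57 and 0.09), against 0.18 over all 12114 genes tested, and 120 of the 181 (66.3%) lay below 0 against 35.3% of all genes. In a fit with no filter, the median over all 227 was -0.20, against 0.05 over 20139 genes with any signal in bulk. The 227 had met the level limit, which those genes did not have to meet, so the 2 sets differ in level.

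No single RNA passed the adjusted test: limma called 0 of 181, where it called 0.347% of all genes in either direction, and the smallest adjusted p was 0.0885. At an unadjusted p under 0.05, 48 were lower, a share of 26.5% against a background of 6.93%, and 10 were higher, 5.52% against 14%. Among the 167 with a library at FPKM 1 or above in both groups, 37 were lower and 8 higher, with a median of -0.23. After quantile scaling, which brought the median of all genes from 0.18 to 0.03, 70 of the 181 were lower and 4 higher. Single libraries moved these counts too, to 49 lower and 18 higher without bulk control 1, to 36 and 5 without bulk CRISPR 2, and to 30 and 5 without bulk CRISPR 3. The share of all genes at this unadjusted p was taken only in the main fit. In the alternatives, a shift of these RNAs cannot be told from a general change in calls. In 56 RNAs every bulk CRISPR library lay below every bulk control (30.9% against 10.4% of all genes), and in 17 every one lay above (9.39% against 21.8%). The 56 include the 11 RNAs that met the filter only through bulk control. The 17 include the 3 that met it only through bulk CRISPR. For these the separation was fixed by the filter. The count of 0 depended on 1 library: without bulk control 1, 25 of the 181 RNAs passed, 4 higher and 21 lower. In that fit 1351 of all 12114 genes passed, so calls rose in general. Its controls were only bulk controls 2 and 3, the shallowest libraries. In simulated bulk data the same fit recovered 13% of changes of 1 log2 unit and 57% of changes of 2. The simulation gave both groups the same spread per gene, unlike the real pools, and changed genes of any level. Its rates may therefore not hold for these RNAs.

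The RNAs that run divergently without overlap had a median of -0.40 over 61 tested, with 47 below 0, and the 24 tested -DT genes had -0.45, with 20 below 0. Those that overlapped the partner at the starts had -0.22 (49), at the ends -0.16 (31) and inside the partner -0.09 (27). By GENCODE exons, which can differ from the deposited gene models, the median was -0.23 over 95 RNAs that share exon bases with the partner. It was -0.26 over 70 that share none. The 37 RNAs with a median FPKM of 5 or more had a median of -0.09, and the 122 between 1 and 5 had -0.29. Medians above 0 were found for the 49 RNAs at least as abundant as the partner (0.06, 21 below 0), for 5 tail to tail with it (0.28) and for 4 that contain it (0.14). No difference between these groups was tested. Other noncoding genes that met the same level limit gave medians of 0.18 for 103 LINC genes (long intergenic RNAs) and -0.22 for 22 SNHG genes (hosts of small nucleolar RNAs).

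**Figure D2:**
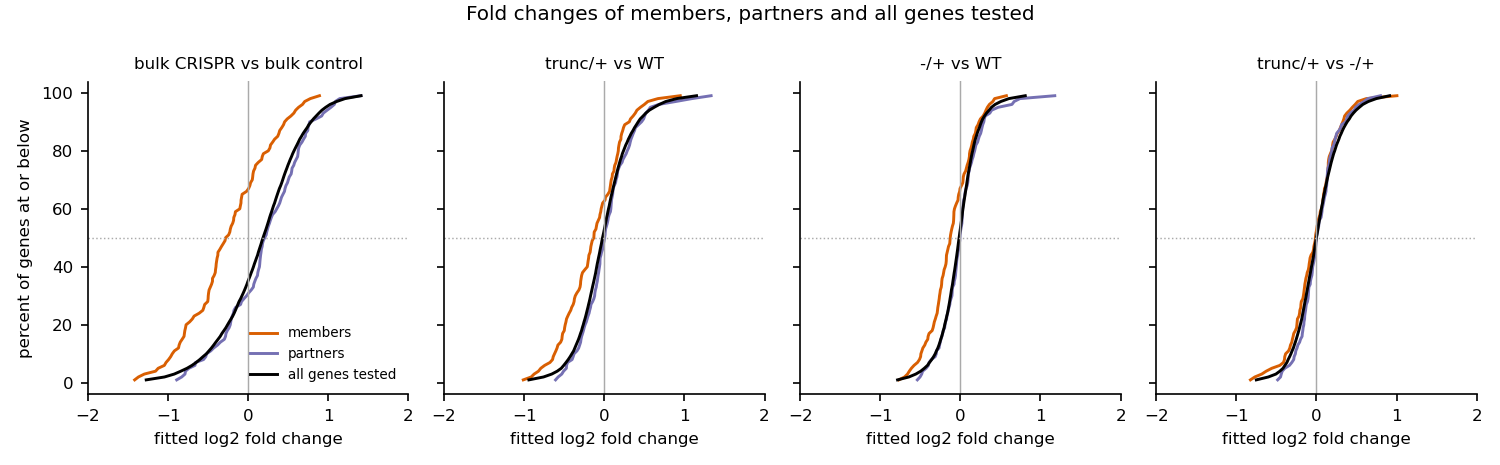
Cumulative distributions of the fitted log2 fold change on the log2(FPKM + 1) scale, 1 panel per comparison, for the antisense and divergent RNAs tested (orange), their partner genes (purple) and all genes tested (black). In bulk the orange line crosses the 50% level at -0.28 and the black line at 0.18, and in trunc/+ against -/+ the lines run together.

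Partners had a positive median. In 139 pairs with both genes tested in bulk, the median was -0.31 for the RNA and 0.18 for the partner, and the median difference within a pair was -0.60. The RNA lay lower and the partner higher in 69 pairs, both lay lower in 29, both higher in 26, and the RNA higher with the partner lower in 15. Of the 59 divergent pairs, 32 had the RNA below 0 and the partner above it. Since most RNAs lay lower and most partners higher, many such pairs would arise without a link between the genes of a pair. Such a link was not tested. No partner passed the adjusted test.

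**Figure D3:**
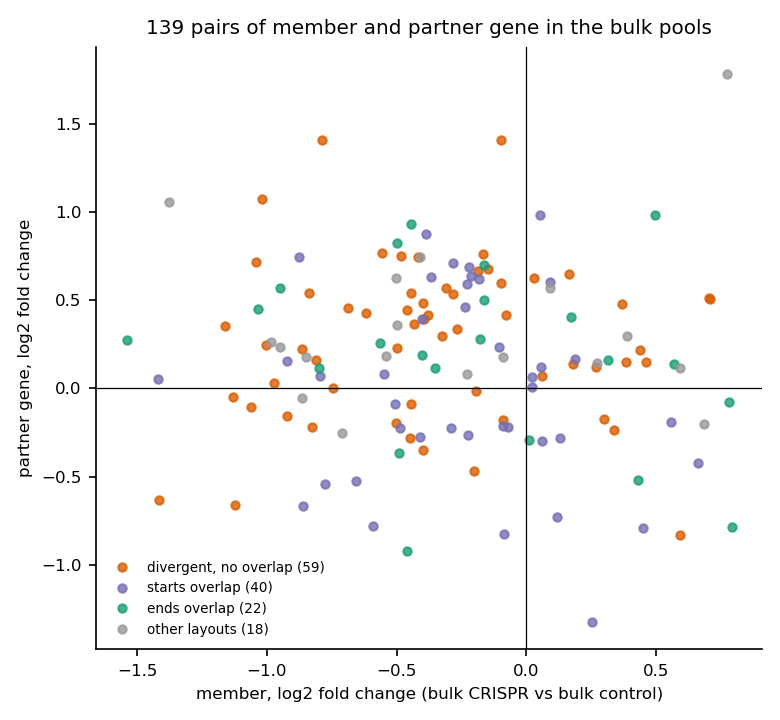
Fitted log2 fold change of each RNA (x axis) and of its partner gene (y axis) in bulk CRISPR against bulk control, 139 pairs, with colours for the layout of the pair. The upper left quadrant, RNA lower and partner higher, holds 69 of the pairs.

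The largest fitted change in bulk was that of PXN-AS1, which overlaps the 3′ end of PXN, the gene of the focal adhesion adaptor paxillin (chr12:120201291-120212828, plus strand). It measured 3.03, 7.04 and 10.8 FPKM in bulk control and 1.37, 1.35 and 1.78 in bulk CRISPR, a log2 difference of -1.54 (SE 0.38, limma adjusted p = 0.127). Every edited pool lay below every control, whereas paxillin mRNA was 121 ± 67.9 and 130 ± 11.7 (SD, n = 3 each) and the groups overlapped.

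SERTAD4-AS1 begins inside SERTAD4 and runs away from it, with 1090 bases of overlap (chr1:210231456-210233885, minus strand), and its start is the one shown above. Its FPKM was 10.9, 18.9 and 22.5 in bulk control and 6.09, 6.18 and 4.68 in bulk CRISPR, with no overlap between groups (log2 difference -1.42, SE 0.30, limma adjusted p = 0.0941). SERTAD4 mRNA was 3.64 ± 0.45 and 3.82 ± 0.36 (SD, n = 3 each). In the 8 clones the RNA stood between 15.4 and 22.9, a range that covers all 3 clone groups, and there SERTAD4 was 13.2 to 38.3.

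CRIM1-DT starts 208 bases from CRIM1, which encodes a membrane protein that binds bone morphogenetic proteins (chr2:36354749-36355570, minus strand). It measured 12.6, 22.7 and 16.2 FPKM in bulk control and 8.49, 4.01 and 5.15 in bulk CRISPR, again without overlap (-1.42, SE 0.32, limma adjusted p = 0.113). CRIM1 itself was 49.1 ± 26.8 and 28.3 ± 4.11 (SD, n = 3 each) and its groups overlapped. ZNF232-AS1 (values above) differed by -1.38 (SE 0.42, limma adjusted p = 0.157), with bulk control 1 at 38.4 just above the highest edited pool at 37.3, and ZNF232 moved the other way, 3.72 ± 3.06 against 7.35 ± 0.41 (SD, n = 3 each, log2 difference 1.06, SE 0.47, limma adjusted p = 0.248).

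MUC12-AS1, inside a mucin gene, was 2.16, 9.06 and 3.24 in bulk control and 1.20, 0.570 and 1.28 in bulk CRISPR. SLC25A34-AS1, which overlaps a mitochondrial carrier gene, was 1.93, 4.63 and 7.04 against 1.43, 0.803 and 0.834. Both sets of groups were apart, and the partners MUC12 and SLC25A34 were too low to test.

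HECW2-AS1 and IGFL2-AS1 were the only RNAs among the 8 with the largest change that lay higher after editing. HECW2-AS1, inside the gene of the ubiquitin ligase HECW2 (chr2:196260024-196264204, plus strand), was 1.06, 0.551 and 0.315 FPKM in bulk control and 4.25, 2.52 and 2.29 in bulk CRISPR (1.28, SE 0.27, limma adjusted p = 0.093). In the clones it was 0 and 0.442 in the WT clones, 0.234, 0.382 and 0.536 in the -/+ clones, and 4.39, 2.30 and 0.287 in the trunc/+ clones, so that 2 of 3 trunc/+ clones lay above the other 6 clones and the third did not. IGFL2-AS1 was 1.49, 0.331 and 0.271 in bulk control and 3.23, 3.99 and 2.52 in bulk CRISPR (1.38, SE 0.30, limma adjusted p = 0.102). It was listed at 0 in both WT clones, in 2 of 3 -/+ clones and in 2 of 3 trunc/+ clones, and reached 7.30 in trunc/+ 2.

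**Figure D4:**
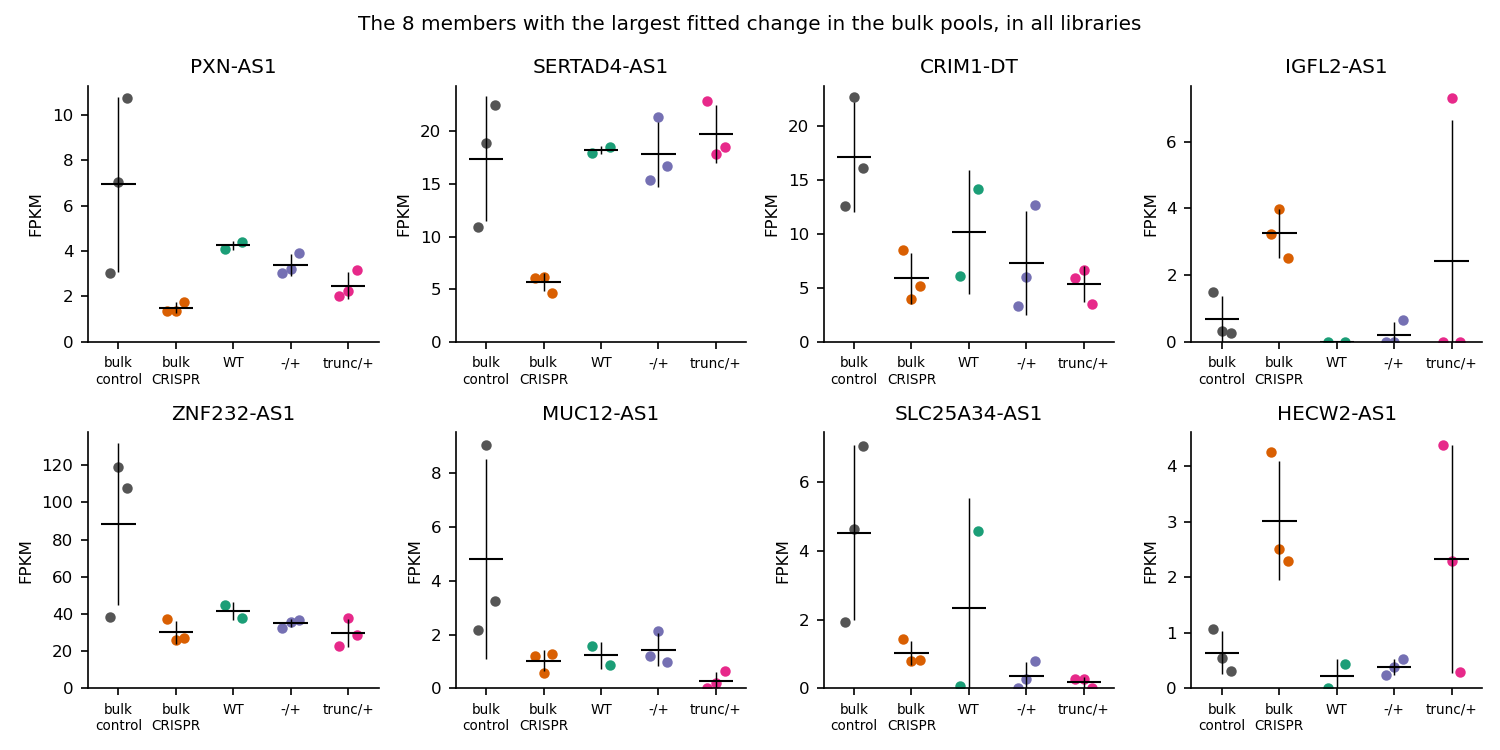
FPKM of the 8 RNAs with the largest fitted change in the bulk pools, in all 14 libraries, linear axes from 0. Points are libraries, horizontal lines group means and vertical lines 1 SD, stopped at 0. The bulk CRISPR points lie below the bulk control points in 6 panels and above them for IGFL2-AS1 and HECW2-AS1.

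The smallest adjusted p-values belonged to RNAs with tighter replicates, named here after their values were seen. TBX2-AS1 starts 237 bases from TBX2, the gene of a T-box factor of the melanocyte lineage, and measured 3.65, 3.06 and 3.01 FPKM in bulk control and 0.607, 0.816 and 1.32 in bulk CRISPR (-1.16, SE 0.22, limma adjusted p = 0.0885). CHKB-DT, 177 bases from the choline kinase gene CHKB, measured 2.75, 2.49 and 2.23 against 0.974, 0.288 and 0.603 (-1.12, SE 0.22, limma adjusted p = 0.0885). CHKB-DT met the filter only through bulk control, so it had to differ. Both are divergent without overlap, and the groups did not overlap for either.

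Of 13 well-studied antisense RNAs among the 227, 10 had a negative fitted change in bulk, and none passed the adjusted test. MAPKAPK5-AS1 was 17.7, 36.7 and 14.8 FPKM in bulk control and 10.1, 12.6 and 11.3 in bulk CRISPR (-0.86, SE 0.34, limma adjusted p = 0.213). GABPB1-AS1 was 3.96, 3.99 and 5.68 against 2.38, 2.39 and 1.87 (-0.78, SE 0.23, limma adjusted p = 0.156), TMPO-AS1 was 3.15 ± 0.81 against 1.60 ± 0.17 (SD, n = 3 each), and the groups did not overlap for the 3. OIP5-AS1, the cyrano RNA that binds the microRNA miR-7, went the other way, at 7.32, 5.17 and 2.12 in bulk control and 8.47, 8.31 and 8.40 in bulk CRISPR (0.79, SE 0.36, limma adjusted p = 0.254). FGD5-AS1, THAP9-AS1 and NUTM2A-AS1 differed by 0.28, 0.41 and -0.08, and their groups overlapped. SLC16A1-AS1, SBF2-AS1, ZEB1-AS1 and VPS9D1-AS1, whose partners include the lactate transporter gene SLC16A1 and the repressor of epithelial genes ZEB1, differed by -0.40, -0.40, -0.39 and -0.71 with overlapping groups. PSMB8-AS1, from the immunoproteasome gene PSMB8, was 1.299, 1.73 and 1.11 against 1.08, 0.387 and 0.349 (-0.59, SE 0.23, limma adjusted p = 0.212), and PSMB8 itself was 86.3 ± 45.2 against 45.9 ± 3.67 (SD, n = 3 each), both without overlap.

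Repeats within these RNAs gave a separate readout, since it counts fragments and includes introns. Uniquely mapped fragments at transposable element copies wholly inside an RNA, on its strand and touching no other gene of that strand, were divided by aligned fragments. In the 158 RNAs with at least 100 such fragments over all libraries, the median log2 ratio of bulk CRISPR to bulk control was 0.02, with 77 lower and 81 higher. Summed over the RNAs, CPM (such fragments scaled to aligned fragments) was 655, 592 and 488 in bulk control and 629, 618 and 585 in bulk CRISPR, and the groups overlapped. The lower gene-level FPKM was not matched in this count. The count covers another set of RNAs, includes introns and has no median over other genes beside it, so the readouts are not directly comparable. For trunc/+ against WT the median was -0.15, with 93 of 158 lower, and for -/+ against WT it was 0.02.

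In the clones, the medians lay nearer 0. Of the 227 RNAs, 212 met the limit in at least 2 of the 8 clones and entered the fit. In trunc/+ against WT their median log2 fold change was -0.13, against -0.02 over all 12904 genes, and 133 (62.7%) lay below 0 against 52.9%. In -/+ against WT it was -0.13 against -0.02, with 143 (67.5%) below 0 against 53.2%. Both comparisons share the 2 WT clones. The share of summed FPKM was 0.189% ± 0.011 (SD, n = 2) in WT, 0.174% ± 0.0055 in -/+ and 0.175% ± 0.017 in trunc/+ (SD, n = 3 each), and trunc/+ overlapped WT.

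Limma called none of the 212 in trunc/+ against WT (background 0.00775% of genes, smallest adjusted p 0.536). At an unadjusted p under 0.05, 22 were lower (10.4% against 4.3%) and 1 higher (0.472% against 3.29%), with 12 lower and 2 higher without WT 1, 18 lower and 5 higher without trunc/+ 3, and 13 lower and 2 higher in a fit of these 2 groups alone. Every trunc/+ library was lower in 52 (24.5% against 15.4%) and higher in 10 (4.72% against 10.6%). Among the 52 were 2 that met the filter only through WT and so had to be lower. In -/+ against WT it again called 0 (background 0.00775%), with 5 lower (2.36% against 1.11%) and 1 higher (0.472% against 0.713%) at an unadjusted p under 0.05. With array weights these were 16 and 3, without WT 2 they were 3 and 0, without -/+ 3 they were 3 and 2, without -/+ 1 they were 7 and 3, and the median was -0.07 without WT 1. Every -/+ library was lower in 36 (17.0% against 8.44%) and higher in 9 (4.25% against 6.16%). The 36 also held the 2 that met the filter only through WT. For the clones too, the share of all genes at an unadjusted p under 0.05 was taken only in the main fit, not in the alternatives. In trunc/+ against -/+ the median was -0.01 against 0.00, 0 were called (background 0.0%), and 8 were lower (3.77% against 3.16%) and 4 higher (1.89% against 3.12%) at an unadjusted p under 0.05. In 174 pairs, the medians for RNA and partner were -0.13 and 0.00 in trunc/+ against WT, and -0.14 and -0.01 in -/+ against WT.

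SLCO4A1-AS1 showed the largest difference between clones. It lies inside SLCO4A1, which encodes an organic anion and thyroid hormone transporter (chr20:62663027-62666621, minus strand, start shown above). Its FPKM was 10.8 and 6.02 in the WT clones, 10.7, 3.18 and 6.49 in the -/+ clones, and 52.1, 30.4 and 19.2 in the trunc/+ clones, so that every trunc/+ clone lay above every other clone. The log2 difference was 1.82 against WT (SE 0.52, limma adjusted p = 0.559) and 2.17 against -/+ (SE 0.46, limma adjusted p = 0.785). SLCO4A1 was 24.9 and 15.6 in the WT clones, 25.7, 16.7 and 27.4 in the -/+ clones, and 69.1, 43.3 and 30.9 in the trunc/+ clones, the same order of trunc/+ clones as for the RNA. In the bulk pools the RNA was at 1.27, 2.90 and 1.44 in control and 2.92, 3.42 and 3.26 in CRISPR, and every edited pool lay above every control (0.59, SE 0.26, limma adjusted p = 0.243).

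FGF14-AS2, inside FGF14, a fibroblast growth factor homologue, was 2.78 and 4.20 in the WT clones, 1.79, 1.91 and 1.53 in the -/+ clones, and 0.499, 1.72 and 0.398 in the trunc/+ clones. All 6 Z18-altered clones lay below both WT clones (trunc/+ -1.31, SE 0.32, limma adjusted p = 0.536). In bulk it was 1.71, 1.98 and 1.32 in control and 0.820, 0.647 and 0.499 in CRISPR, also apart, and it met the bulk filter only through the controls.

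DGUOK-AS1 overlaps the end of DGUOK, the mitochondrial deoxyguanosine kinase gene, and was 2.62 and 3.01 in the WT clones, 2.52, 1.28 and 2.39 in the -/+ clones, and 0.945, 1.00 and 0.644 in the trunc/+ clones (-1.04, SE 0.25, limma adjusted p = 0.536). TP73-AS1, from the end of the p53-family gene TP73, was 2.62 and 2.31 in the WT clones, 1.84, 1.95 and 1.72 in the -/+ clones, and 0.433, 0.433 and 1.42 in the trunc/+ clones (-1.02, SE 0.27, limma adjusted p = 0.552). For both, every trunc/+ clone lay below every WT and -/+ clone. In bulk, TP73-AS1 was 0.538, 0.518 and 1.09 against 1.03, 0.698 and 0.822, which overlap.

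Among the largest differences of -/+ from WT, ARF4-AS1 starts 445 bases from ARF4, the gene of a Golgi GTPase, and was 4.08 and 3.15 in the WT clones, 1.91, 1.56 and 1.60 in the -/+ clones, and 1.75, 1.67 and 1.09 in the trunc/+ clones (-/+ -0.77, SE 0.21, limma adjusted p = 1.0). ARF4 mRNA was 162 ± 26.5 (SD, n = 2) in WT and 171 ± 30.0 (SD, n = 3) in -/+. CDC37L1-DT, 89 bases from the Hsp90 co-chaperone gene CDC37L1, was 1.88 and 2.73 in the WT clones, 0.312, 1.23 and 0.195 in the -/+ clones, and 1.69, 2.09 and 4.42 in the trunc/+ clones, lower in -/+ than in either other group (-1.11 against WT, SE 0.39, limma adjusted p = 1.0). CDC37L1 mRNA was between 9.93 and 11.96 in the 8 clones. NR2F1-AS1, divergent from a nuclear receptor gene, rested on 1 clone, with 4.47 in -/+ 3 and 0.459 to 0.995 in the WT and other -/+ clones. THAP9-AS1 was 12.1, 5.62 and 8.02 in trunc/+ against 19.8, 17.0 and 13.6 in -/+, below it in every clone, and 16.6 and 9.95 in WT, which it overlapped.

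The remaining RNAs with large clone differences are given by clone. SOCS2-AS1, beside the cytokine signalling suppressor SOCS2, was 0.438 and 4.18 in the 2 WT clones, and 0.255 to 0.619 in trunc/+, so that only WT 2 lay above the trunc/+ range. FOXC2-AS1, beside a forkhead factor gene, was 0.591 and 0.0779 in WT, 1.10 to 2.79 in trunc/+ and 0.185 to 3.16 in -/+, and FOXC2 averaged 1.80 ± 1.03 (SD, n = 2), 6.51 ± 3.62 and 5.29 ± 5.49 (SD, n = 3 each) in the same order. TPT1-AS1 and HPN-AS1 ranged over the clones from 0.327 to 5.50 and from 0.526 to 8.50, with overlapping groups, and in the 6 bulk libraries they were at most 0.924 and 0.897.

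TTC28-AS1 was 3.13 and 6.84 in the WT clones, 3.17, 5.35 and 4.07 in the -/+ clones, and 1.49, 2.81 and 1.80 in the trunc/+ clones, the last below all other clones (-0.93 against WT, SE 0.33, limma adjusted p = 0.638). LYRM4-AS1, at the end of a gene for iron-sulfur cluster assembly, was 1.93 and 1.75 in WT and 0.718, 0.863 and 0.583 in -/+, below WT in every clone (-0.73, SE 0.26, limma adjusted p = 1.0). SP2-AS1 was 1.03 and 1.57 in WT against 0.294, 0.165 and 0.534 in -/+, also apart (-0.79, SE 0.37, limma adjusted p = 1.0). HOXB-AS1, from the HOXB homeobox cluster, was 5.64 and 4.22 in WT against 4.71, 1.71 and 2.08 in -/+, which overlapped. MUC12-AS1 was 0, 0.212 and 0.630 in trunc/+ and 1.19, 2.14 and 0.971 in -/+, lower in each trunc/+ clone (-0.93, SE 0.29, limma adjusted p = 0.785).

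**Figure D5:**
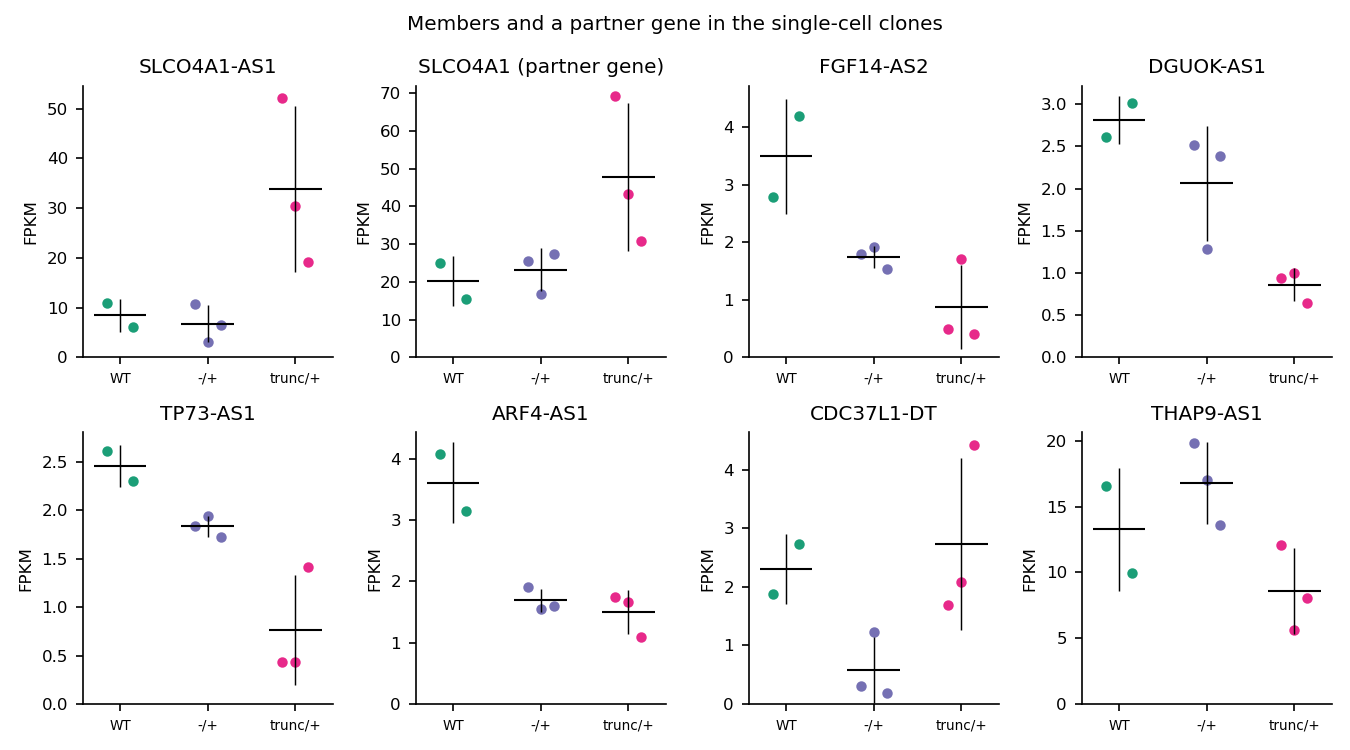
FPKM in the 8 clones of antisense and divergent RNAs with large differences between clone groups, and of SLCO4A1, a partner gene. Points are clones, horizontal lines group means, vertical lines 1 SD (stopped at 0), and all axes are linear from 0. SLCO4A1-AS1 and SLCO4A1 were highest in the 3 trunc/+ clones, and ARF4-AS1 was lower in all 6 altered clones than in WT.

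Nuclear RNA processing and decay were measured alongside through a list of 40 genes, not all of which remove RNA. They belong to NEXT, PAXT, cap binding, the exosome, Integrator, cleavage and polyadenylation, and the U1 particle. All 40 were tested and none passed in any comparison. Their median log2 fold change was 0.12 in bulk against 0.18 for all genes, -0.20 in trunc/+ against WT, -0.05 in -/+ against WT and -0.16 in trunc/+ against -/+. Their summed FPKM was 1724 to 2132 in bulk control and 1428 to 1564 in bulk CRISPR. In the clones it was 1509 to 1529 in WT, 1385 to 1501 in -/+ and 1254 to 1292 in trunc/+. These ranges did not overlap between an altered group and its control, but the sums include Z18 itself and follow the most abundant genes. In bulk, SNRNP70 of the U1 particle was 183, 306 and 284 in control and 135, 110 and 124 in CRISPR. SRRT went the other way, at 58.9, 35.3 and 43.0 against 75.4, 66.1 and 77.2. MTREX, the helicase of both adaptors, was 57.5 and 57.9 in the WT clones, 54.8, 48.9 and 45.7 in the -/+ clones, and 38.0, 46.9 and 44.1 in the trunc/+ clones.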

How the data were processed

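Groups were taken from the genotype labels of the 14 libraries. The authors mapped reads to hg38 and used SQuIRE for repeats, and the submitters' processing notes name cutadapt 4.6. The deposited gene files give FPKM and TPM per gene in the layout of a StringTie abundance table, although no source used here names their tool. The deposited repeat files hold a count of uniquely mapped fragments and an estimated count per repeat copy. Those files also hold the aligned fragments. The coverage signal that the authors deposited beside FPKM was not used. No column lacked a sample (0 columns).

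FPKM was summed per symbol and tested as log2(FPKM + 1) with limma 3.58.1 (trend, R 4.3.3), since normalized values hold no counts. One fit used the 6 bulk libraries (FPKM of at least 1 in 3) and one the 8 clones (at least 1 in 2). P-values were two-sided and Benjamini-Hochberg adjusted over all genes tested, at a threshold of 0.05. Fold changes on this scale understate those of low genes. The fits were tested on simulated data. Tables were made in Python 3.11.15. Layouts came from the files' coordinates and exons from GENCODE release 44. Of the 227 RNAs, 12 had rows on more than 1 assembly sequence. Named were the 8 with the largest fitted change per comparison, the 12 most abundant, 13 of a list of 18 well-known antisense RNAs, and any listed at 0 in WT but at 1 or more in bulk CRISPR. Members and lists were chosen with earlier results of these data known. Alternatives were another pseudocount, filter, unit, scaling, sample weights, a replicate block, a fit of 2 groups and leaving out each library.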

Additional observations from a re-analysis of the deposited data

How the results depend on the processing

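In bulk, 3 of 181 RNAs were called after quantile scaling (CHKB-DT, FUT8-AS1 and TBX2-AS1), beside 73 of 12114 genes. CHKB-DT and FUT8-AS1 met the filter only through bulk control. With a pseudocount of 0.1, no filter, a filter on the mean, TPM or array weights, 0 were called. Leaving out each library in turn gave 0 to 25, the 25 without bulk control 1, where 1351 genes were called. With the replicate number as a block, 5 were called (CHKB-DT, HECW2-AS1, IGFL2-AS1, PXN-AS1 and SERTAD4-AS1), beside 220 of 12114 genes. The genotype labels do not say whether the numbers pair the samples. Same-numbered bulk libraries had correlations of deviations of -0.169, -0.216 and 0.176, and libraries of other numbers had -0.274 to 0.407. Deviations from a group mean balance within the group, so these values cannot decide pairing. The block changed no call in the clones. The bulk median was -0.37 with a pseudocount of 0.1 and -0.55 after quantile scaling, and -0.34 to -0.18 when each library was left out. The causes were not tested. In the clones, 0 RNAs were called under each alternative run. SOCS2-AS1 in trunc/+ against WT moved from -0.91 to 0.0111 without WT replicate 2 and to -1.84 without WT replicate 1, and WT replicate 2 was the clone that held 4.18 FPKM against 0.438 in the other WT clone. Of 422 further values for 32 results of named RNAs, 410 kept direction and side of the threshold, and 11, all in bulk, came to pass it. An FPKM limit of 2 gave 141 RNAs and one of 0.5 gave 323. Depth behind low FPKM values limits all of this. A left-out library that leaves 1 WT clone assumes that clone to vary like the other groups.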
